A study of Rattus norvegicus with 6 samples.

Results

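Uncoupling proteins, adenine nucleotide carriers, the phosphate carrier and the porins of the outer mitochondrial membrane were examined in the rat left ventricle. The genes were Ucp2, Ucp3, Slc25a4, Slc25a5, Slc25a3, Vdac1, Vdac2 and Vdac3. Every probe set annotated with one of these 8 symbols was taken, which gave 9 of the 15866 non-control probe sets on the array, 1 for each gene and 2 for Vdac1. Total RNA came from 3 rats labelled normal and 3 labelled diabetic, with 1 Affymetrix array per heart, and the design text counts them as separate animals. The labels name neither the agent or strain behind the diabetes nor its duration, nor the age, sex or feeding state of the rats, so the model cannot be described further. Values are the deposited signal intensities on a linear scale, and a probe set's level is compared only with itself across arrays.

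These proteins form the route by which adenine nucleotides, phosphate and protons cross the mitochondrial membranes. The adenine nucleotide carriers exchange matrix ATP for cytosolic ADP, the phosphate carrier brings in the phosphate that ATP synthase needs, and the voltage-dependent anion channels let all of these through the outer membrane. Uncoupling proteins belong to the same carrier family, and Ucp3, which is found mainly in skeletal muscle and heart, is a textbook target of the fatty acid sensor PPAR-alpha. Slc25a4 encodes the carrier form of heart and skeletal muscle, while Slc25a5 is expressed more widely, and Ucp2 is found in many tissues, including cells of the immune system.

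Ucp2 and Ucp3 lie next to each other in the rat gene table, with Ucp3 before Ucp2 and no protein-coding gene between them. The 250 bases before the gene start were taken from RefSeq (assembly GRCr8) for 7 of the 8 genes, Vdac3 being the other, and those of the 2 uncoupling proteins and the 2 adenine nucleotide carriers are shown because these are the related pairs whose values are set side by side below. They lie at chr1:164251123-164251372 (Ucp2), chr1:164227660-164227909 (Ucp3), chr16:52805271-52805520 (Slc25a4) and chrX:120897366-120897615 (Slc25a5), all on the plus strand. Each runs 5′ to 3′, and capitals mark matches on either strand to 6 short motifs.
Ucp2: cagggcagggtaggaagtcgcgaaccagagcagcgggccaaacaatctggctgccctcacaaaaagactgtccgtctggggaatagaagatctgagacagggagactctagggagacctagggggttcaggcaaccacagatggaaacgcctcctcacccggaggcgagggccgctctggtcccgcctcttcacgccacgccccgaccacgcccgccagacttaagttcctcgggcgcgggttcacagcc
Ucp3: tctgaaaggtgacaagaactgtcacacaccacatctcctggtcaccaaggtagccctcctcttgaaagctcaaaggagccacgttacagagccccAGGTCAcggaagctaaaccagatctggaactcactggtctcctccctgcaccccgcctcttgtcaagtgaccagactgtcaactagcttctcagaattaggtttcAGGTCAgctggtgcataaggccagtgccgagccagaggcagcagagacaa
Slc25a4: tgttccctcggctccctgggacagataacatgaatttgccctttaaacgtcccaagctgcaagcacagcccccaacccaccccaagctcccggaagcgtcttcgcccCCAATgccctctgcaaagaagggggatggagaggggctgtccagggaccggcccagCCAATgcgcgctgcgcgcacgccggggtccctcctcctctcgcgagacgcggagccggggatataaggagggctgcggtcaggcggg
Slc25a5: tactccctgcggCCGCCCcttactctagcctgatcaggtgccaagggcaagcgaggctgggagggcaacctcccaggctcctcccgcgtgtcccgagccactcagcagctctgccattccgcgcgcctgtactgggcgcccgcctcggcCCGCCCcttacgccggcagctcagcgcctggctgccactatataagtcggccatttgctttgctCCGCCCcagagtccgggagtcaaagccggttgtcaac
The motifs searched were the GC box GGGCGG, the nuclear receptor hexamer AGGTCA, the E-box CACGTG, the core TGCGCA of the NRF1 motif, the CCAAT box and the TATA box TATAAA, none of which matches another. In the Ucp3 window, the nuclear receptor hexamer AGGTCA began 155 and 50 bases before the gene start, so the 2 copies were not adjacent. It was absent from the other 6 windows and present in 14.1% of 33469 rat promoter windows of this length. The Ucp2 window held none of the 6 motifs. The Slc25a5 window held 3 GC boxes on the opposite strand, and GC boxes were in the windows of 4 of the 7 genes, against 30.5% of all windows. The Slc25a4 window held 2 CCAAT boxes, against 34.0% of windows with at least 1. A match describes the letters only.

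All 9 probe sets passed the filter on dim signals (a mean over the 6 arrays above the 40th percentile), which left 9518 probe sets in the test. Arrays had been scaled to a common level, with trimmed means of 500.2 on each. Among the 100 brightest tested probe sets, normal 3 gave the lowest normal signal at 89 and diabetic 2 the highest diabetic signal at 81, where over all tested probe sets these shares were 34.5% and 30.1%. Their part in the results for bright genes such as Slc25a4 and Slc25a3 was not tested beyond the rescaled values given with them. Results are given with and without normal 3.

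None of the 9 probe sets changed between diabetic and normal hearts by limma at an adjusted p under 0.05, a call that 2.57% of all tested probe sets reached. At an unadjusted p under 0.05 there was 1, Ucp2, where the share of all tested probe sets was 19.9%. The 2 groups did not overlap at 1 probe set, that of Vdac3, against 25.8% of all tested. Log2 fold changes were above 0 at 5 probe sets and below 0 at 4, with a median of 0.0038 beside -0.013 over all tested. Every estimate lay within 1.5-fold in either direction. The 95% interval lay within 1.5-fold at 5 probe sets and within 2-fold at 8, the other being that of Ucp3. Without normal 3 there was again no change at an adjusted p under 0.05 (1.01% of all tested) and 1 probe set at an unadjusted p under 0.05, now Ucp3 (15% of all tested). The groups then did not overlap at 2, Ucp3 and Vdac3, against 33.3%.

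**Figure D1:**
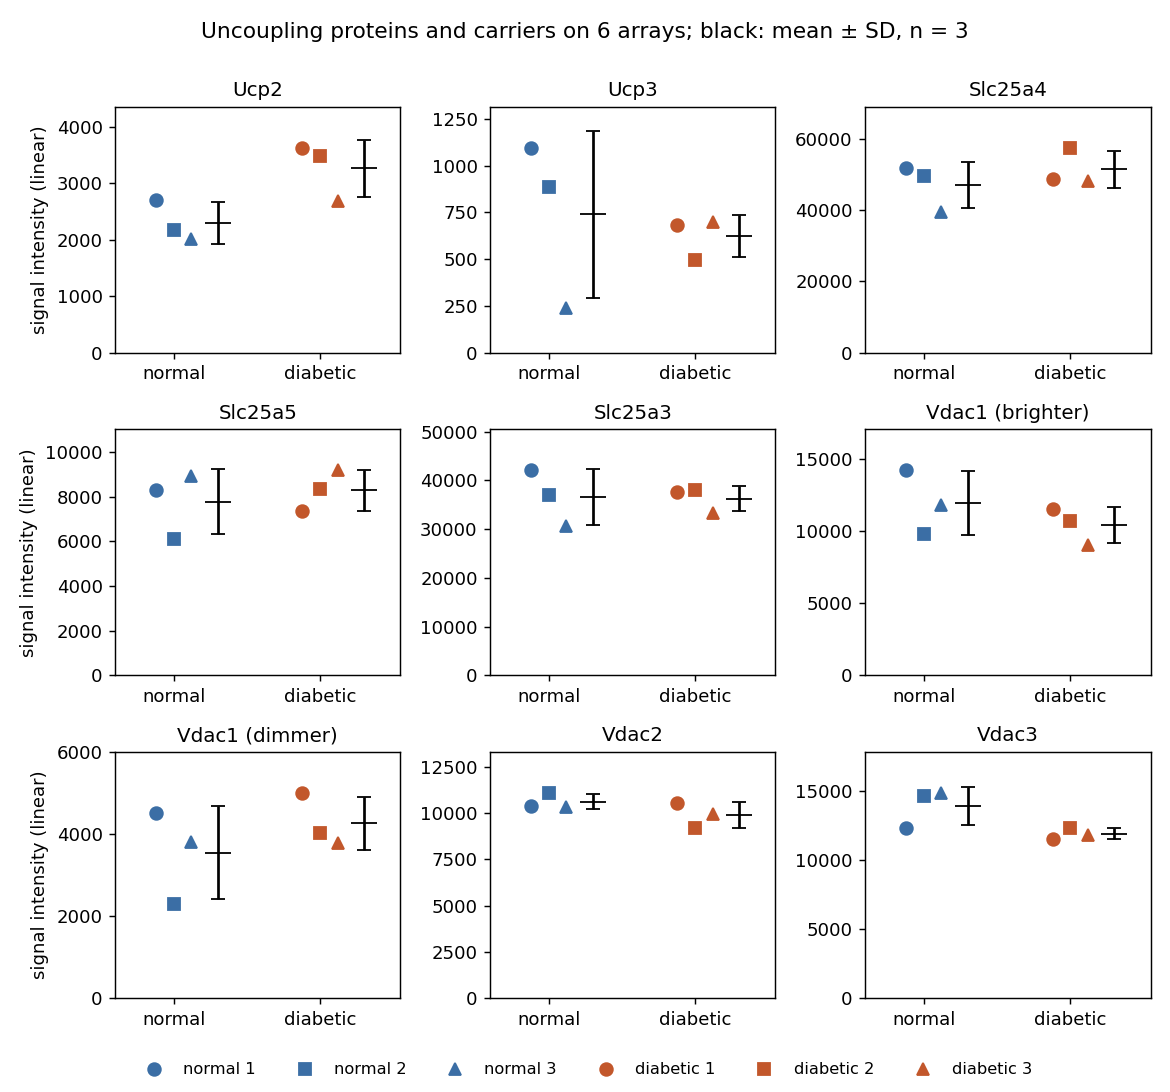
Deposited signal intensity (linear axis from 0) of each of the 9 probe sets on the 3 normal (blue) and 3 diabetic (orange) arrays, with the mean and SD of each group in black (n = 3). Normal 3 stands apart at Ucp3 with 237.9, and the diabetic means lie above the normal ones at Ucp2 (3270 against 2299).

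Ucp2, an inner membrane carrier named for its likeness to the uncoupling protein of brown fat, had the largest estimated difference of the 9 with all 6 arrays. Its signal was 2710.1, 2178.8 and 2007.4 in normal 1, 2 and 3, and 3633.0, 3481.0 and 2697.4 in diabetic 1, 2 and 3. Every diabetic array lay above the normal mean, but diabetic 3 fell just below normal 1, so the groups overlapped. The means were 2299 ± 366 and 3270 ± 502 (SD, n = 3 per group), a 1.42-fold difference (log2 0.51 ± 0.18, SE). The 95% interval ran from 1.07-fold to 1.88-fold, and the limma p was 0.0209 unadjusted and 0.165 adjusted over all tested probe sets. In order of p, Ucp2 stood at 1208 of 9518. Without normal 3 the difference was 1.33-fold (log2 0.41 ± 0.20, limma adjusted p = 0.383), with an interval from -0.05 to 0.88 on the log2 scale. With 3 arrays a group, an exact permutation test cannot go below p = 0.1.

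Ucp3, the uncoupling protein of muscle, had a difference that turned on a single normal heart. Its signal was 1095.6, 883.3 and 237.9 in normal 1, 2 and 3, and 683.7, 496.9 and 696.9 in the diabetic arrays. The diabetic hearts lay between the extremes of the normal hearts, since normal 3 held only 24.0% of the mean of normal 1 and 2. The spread of the normal arrays, 2.13 on the log2 scale from lowest to highest, was larger than that of 99.6% of tested probe sets, while the diabetic spread of 0.48 was larger than that of 63.5%. Over all arrays the group means were 739 ± 447 and 626 ± 112 (SD, n = 3 per group), and no diabetic array lay above the normal mean. The log2 scale gives the low value of normal 3 more weight, and there the fold change was 0.0038 ± 0.48 (SE, limma adjusted p = 0.998). Its 95% interval ran from 0.472-fold to 2.13-fold, so a 2-fold rise or fall could not be told from no difference. Without normal 3, all 3 diabetic arrays lay below both normal ones, at 63.3% of their mean. The log2 fold change was then -0.66 ± 0.21 (SE), with an interval from -1.14 to -0.17. The limma p was 0.0141 unadjusted and 0.207 adjusted over all tested probe sets.

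Ucp2 and Ucp3 were set against each other within each array, a contrast chosen after their values were seen. The log2 difference, Ucp2 minus Ucp3, was 1.29, 1.29 and 2.99 in the normal arrays and 2.38, 2.77 and 1.93 in the diabetic ones. Normal 1 and 2 lay below all 3 diabetic arrays and normal 3 above them. The groups differed by 0.50 over all arrays (exact permutation p = 0.4, two-sided, 0.6 after Benjamini-Hochberg over 3 such contrasts). They differed by 1.07 without normal 3 (exact permutation p = 0.2), so unequal change of the neighbouring genes was not shown at this number of arrays.

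Genes known to respond to PPAR-alpha were lower in normal 3 as well. Of 24 tested genes in that list, 20 had their lowest signal of the 6 arrays in normal 3, against 18.8% of all tested probe sets. Of the 100 brightest tested probe sets 49 were lowest there, and 5 of the 24 list genes are among those 100, 3 of them lowest there. Diabetic estimates were above 0 at 22 of the 24, where a normal array is more often the lowest of the 6. That count also draws on normal 3, so the counts of 22 and 20 are not independent. Among the 100 brightest, normal 3 gave the lowest normal signal at 89. How much of the count of 20 comes from these was not tested. Pdk4, the kinase that switches off pyruvate dehydrogenase, stood in normal 3 at 18.6% of the mean of normal 1 and 2. Angptl4, a secreted inhibitor of lipoprotein lipase, stood at 7.23% of that mean. Both are named after their values were seen. In the diabetic arrays Ucp3 and these genes parted. Pdk4 averaged 162% and Angptl4 226% of the mean of normal 1 and 2, and Ucp3 63.3%. Measured against the mean of normal 1 and 2 on the log2 scale, Ucp3 was at -0.51, -0.96 and -0.49 in diabetic 1, 2 and 3. All 24 list genes lay above it in each of these 3 arrays, with list medians of 0.34, 0.39 and 0.39. Lpl in diabetic 1 lay above it only barely (-0.510 against -0.515). The order rests on normal 1 and 2 as the reference. Over all 6 arrays, the log2 fold change of Ucp3, 0.0038, lay above those of Lpl (-0.10) and Vnn1 (-0.13). Ucp2 was at 0.58, 0.52 and 0.15, within the range of the list. These are descriptions, since the list was chosen with earlier results of these arrays known.

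**Figure D2:**
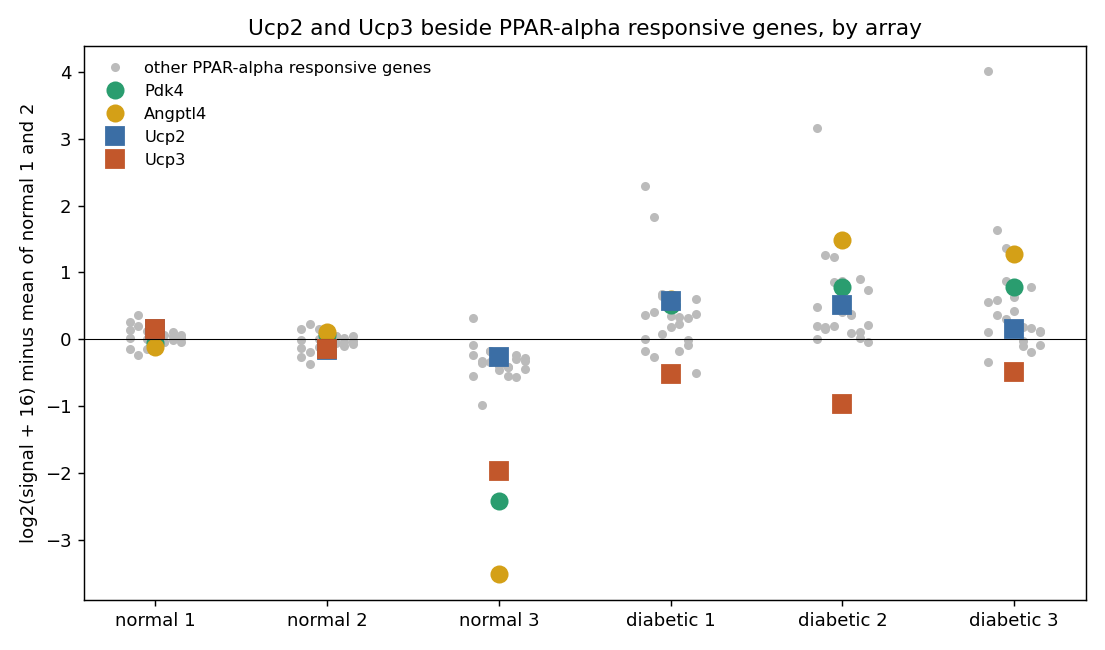
Log2(signal + 16) on each array minus the mean of normal 1 and 2, for Ucp2 and Ucp3 (squares), Pdk4 and Angptl4 (large circles) and the other PPAR-alpha responsive genes (small grey circles, shifted sideways for legibility). Ucp3 is low together with Pdk4 and Angptl4 in normal 3, at -1.98. It lies below all 24 list genes in the 3 diabetic arrays, only barely below Lpl in diabetic 1.

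The adenine nucleotide carriers gave small estimates. Slc25a4, the heart and muscle form, had signals of 51884.4, 49505.6 and 39620.4 in the normal arrays and 48863.5, 57559.1 and 48151.0 in the diabetic ones. Normal 3 was lowest and diabetic 2 highest, and the other 4 arrays lay close together. The means were 47004 ± 6504 and 51525 ± 5238 (SD, n = 3 per group), or 1.10-fold (log2 0.14 ± 0.16, SE, limma adjusted p = 0.696), with a 95% interval from 0.852-fold to 1.42-fold. Without normal 3 the estimate was 0.019 ± 0.17 on the log2 scale, and with quantile normalization 0.071.

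Slc25a5, the widely expressed form, had signals of 8286.3, 6130.6 and 8931.2 in the normal and 7358.0, 8361.5 and 9185.7 in the diabetic arrays. Here normal 2 was lowest, and normal 3 lay above 2 of the 3 diabetic arrays. The difference was 1.08-fold (log2 0.11 ± 0.18, limma adjusted p = 0.809), with an interval from 0.808-fold to 1.43-fold. It was 0.21 without normal 3, and -0.057 without normal 2. Slc25a4 minus Slc25a5 within arrays averaged 2.60 ± 0.43 in normal and 2.63 ± 0.21 in diabetic hearts on the log2 scale (SD, n = 3 per group, exact permutation p = 0.9). The carrier forms are close copies of each other, so their probe sets may not be fully separate.

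Slc25a3, the phosphate carrier, had signals of 42054.6, 37076.6 and 30668.3 in the normal and 37582.1, 38009.8 and 33271.2 in the diabetic arrays. The diabetic values all lay inside the normal range. The log2 fold change was -0.0029 ± 0.16 (limma adjusted p = 0.996), with an interval from 0.773-fold to 1.29-fold. It was -0.12 without normal 3, 0.10 without normal 1 and 0.059 with quantile normalization, so its sign depended on the setting.

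The voltage-dependent anion channels, which admit metabolites through the outer membrane and bind hexokinase there, had estimates below 0 at 3 of their 4 probe sets, none at an unadjusted limma p under 0.05 as deposited, where 52.1% of all tested probe sets had estimates below 0. With quantile normalization these 3 stood at -0.35 for Vdac3 (limma p 0.0400 unadjusted and 0.226 adjusted over all tested probe sets), -0.29 for the brighter probe set of Vdac1 and -0.21 for Vdac2 on the log2 scale. Vdac3 had signals of 12349.8, 14620.1 and 14844.9 in the normal arrays against 11529.7, 12322.8 and 11838.0 in the diabetic ones. The groups were separate, though normal 1 lay only just above diabetic 2. The means were 13938 ± 1380 and 11897 ± 399.8 (SD, n = 3 per group), or 0.856-fold (log2 -0.22 ± 0.14, limma adjusted p = 0.427), with an interval from 0.684-fold to 1.07-fold. A gene named Vdac3l1 lies beside Vdac3 in the gene table and may share its signal.

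Vdac2 had signals of 10399.3, 11085.3 and 10347.0 in normal and 10550.5, 9189.4 and 9947.5 in diabetic arrays. Its log2 fold change was -0.10 ± 0.14 (limma adjusted p = 0.735), with an interval from 0.751-fold to 1.16-fold. The range of its normal arrays, 0.099 on the log2 scale, was wider than that of only 6.51% of tested probe sets.

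The 2 probe sets of Vdac1 pointed in opposite directions. The brighter had signals of 14218.6, 9808.2 and 11814.7 in normal and 11540.9, 10726.2 and 9054.9 in diabetic arrays (log2 -0.18 ± 0.18, limma adjusted p = 0.62). The dimmer had 4520.7, 2305.7 and 3821.8 against 5005.0, 4030.5 and 3778.3 (log2 0.31 ± 0.25, limma adjusted p = 0.541). Both were lowest among normal arrays in normal 2, without which the dimmer stood at 0.029 and the brighter at -0.32. The brighter stood at -0.051 without normal 1 and -0.086 without diabetic 3. Within arrays, the dimmer minus the brighter was -1.65, -2.08 and -1.62 in normal and -1.20, -1.41 and -1.26 in diabetic hearts on the log2 scale. All 3 diabetic values lay above all normal ones, a difference of 0.50. The exact permutation p was 0.1, the smallest the design allows, and 0.3 after Benjamini-Hochberg adjustment over the 3 contrasts. The contrast was chosen after the values were seen.

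**Figure D3:**
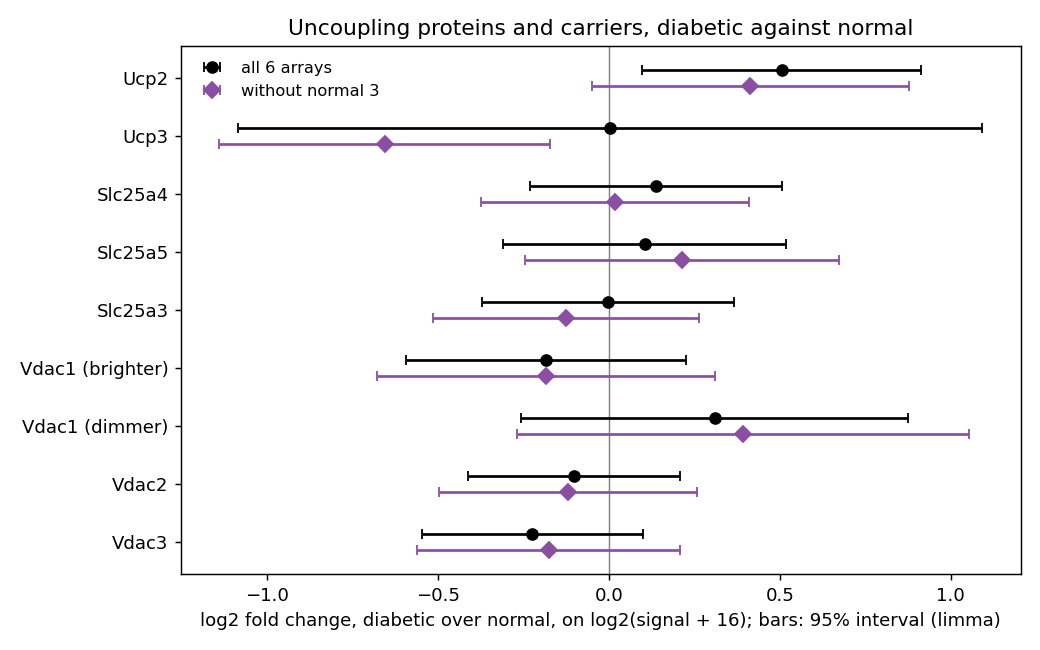
Log2 fold change (diabetic over normal, on log2(signal + 16)) of each probe set with its 95% interval from limma, with all 6 arrays (black circles) and without normal 3 (purple diamonds). Ucp3 moves from 0.0038 to -0.66 when normal 3 is left out, and Ucp2 stays at 0.51 and 0.41.

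Genes around this route were counted by their brightest tested probe set. Of all tested probe sets, 1.38% rose and 1.2% fell. Among 24 other tested mitochondrial carriers, Slc25a33, a pyrimidine nucleotide carrier, rose and none fell, with a list median of 0.0012 on the log2 scale. Slc25a33 went from 188 ± 11.7 to 349.5 ± 47.5 (SD, n = 3 per group; log2 0.84 ± 0.15, limma adjusted p = 0.0262). Leaving out any 1 array ended the call, with an adjusted p of up to 0.101 (normal 3 left out). Of the other carriers called uncoupling proteins, Slc25a14 (UCP5), named after its value was seen, had signals of 136.9, 66.0 and 125.9 in normal and 226.6, 187.6 and 200.8 in diabetic arrays (log2 0.86 ± 0.24, limma adjusted p = 0.0922). Its normal mean of 109.6 lay below the filter level of 117.65, so it was tested only through its diabetic signals, and a pseudocount of 64 gave 0.65. Ucp1, the brown fat form, was dim and untested, at 6.0 to 44.5 on all arrays, as was Slc25a27 (UCP4), at 27.9 to 90.7.

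None of 16 ATP synthase subunits and inhibitors changed by limma (list median -0.087). The smallest p-values were those of Atp5if1, the inhibitor of the enzyme's reverse reaction (log2 0.74 ± 0.26, adjusted p = 0.162), and Atp5mk, a small membrane subunit (log2 -0.22 ± 0.14, adjusted p = 0.408). Of the 16, only Atp5if1 had an unadjusted p under 0.05, against 19.9% of all tested probe sets. Of 5 creatine and adenylate kinases, which pass on the phosphate of exported ATP, Ckb, the brain-type creatine kinase, fell (log2 -2.26 ± 0.16, limma adjusted p = 0.00076) and none rose. Its call held with any 1 array left out.

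Of 15 genes for VDAC-binding and permeability transition proteins, 1 rose and none fell (list median 0.066). Bcl2l1, which encodes the survival protein Bcl-xL that binds VDAC, went from 183 ± 38.9 to 458 ± 117 (SD, n = 3 per group; log2 1.24 ± 0.22, limma adjusted p = 0.0262). That call needed normal 2, normal 3, diabetic 1 and diabetic 2, and its adjusted p reached 0.0902 when normal 3 was left out.

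Of the 24 PPAR-alpha responsive genes, 5 rose and none fell, with a list median of 0.46 on the log2 scale. They were Acot1 and Acot2, thioesterases of the cytosol and the mitochondrion (log2 3.34 and 1.91), Decr1 and Eci1, needed to oxidise unsaturated fatty acids (1.20 and 0.87), and Hadha of the trifunctional protein (0.85). Acot1 had signals of 29.8 to 64.6 in normal arrays, with a mean of 44.8 that lay below the filter level of 117.65, so it was tested only through its diabetic mean of 655. Its log2 fold change was 3.74 with a pseudocount of 1 and 2.60 with one of 64. The Decr1 and Eci1 calls needed normal 2 and 3 and diabetic 2 and 3, that of Hadha normal 1 and 3 and diabetic 2 and 3, and that of Acot2 normal 2 and diabetic 1 and 3. Without normal 3, 2 rose, Acot1 and Acot2 (0.557% of all tested probe sets rose), and the median was 0.33. Over all arrays Ucp3 stood at 0.0038 and Ucp2 at 0.51 on the same scale. Of 12 regulators of these genes none changed by limma (list median 0.098). Thrb, a thyroid hormone receptor (log2 0.68 ± 0.19, adjusted p = 0.094), and Prkaa2, a catalytic subunit of AMPK (log2 -0.43 ± 0.14, adjusted p = 0.126), had the smallest p-values. Of the 12, 4 were under 0.05 unadjusted, against 19.9% of all tested probe sets. Ppara itself was too dim to test.

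**Figure D4:**
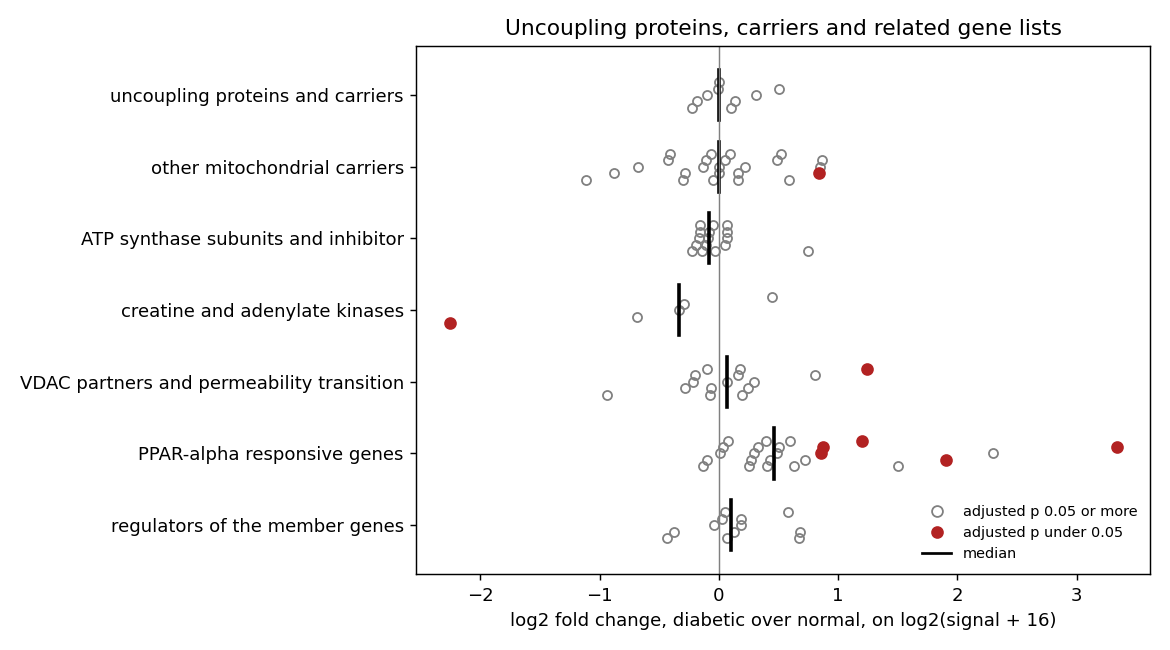
Log2 fold change (diabetic over normal) of the 9 probe sets and of the tested genes of 6 related lists, 1 circle per probe set or gene, shifted vertically for legibility. Filled circles passed an adjusted p of 0.05 and black bars are medians, which run from -0.34 for the kinases to 0.46 for the PPAR-alpha responsive genes.

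Markers of the ventricle and of other cells were read on the same arrays. All 7 ventricular cardiomyocyte markers on the array were tested, and their summed signal ran from 193372 to 248552 in normal and from 156775 to 211481 in diabetic arrays. Myh6 fell among them (log2 -1.55 ± 0.29, limma adjusted p = 0.0319), a call that needed each normal array and diabetic 1. Its mean signal went from 45677 to 16378, a difference that enters those sums. The other 6 did not change by limma. Of the 7 estimates 6 lay below 0, against 52.1% of all tested probe sets. Of the 7, 2 were under 0.05 unadjusted, against 19.9%. For Ucp3, skeletal muscle is the other main source. Of 10 skeletal muscle markers only 3 passed the dim filter (Acta1, Ckm and Tnni2). The heart itself expresses Acta1 and Ckm, and the fast-fibre gene Actn3 was at 3.8 to 17.5 on all arrays. Tnni2 had signals of 161.3, 155.3 and 76.2 in normal and 147.1, 131.9 and 175.4 in diabetic arrays. Like Ucp3 it was lowest in normal 3 (log2 fold change 0.24 ± 0.25, limma adjusted p = 0.655). The part of skeletal muscle in the Ucp3 values was not tested. For Ucp2, leukocytes are another source. Of 9 macrophage and leukocyte markers on the array 6 were tested and none changed by limma. At an unadjusted p under 0.05 there was 1, against 19.9% of all tested probe sets. The summed signal of the 9 ran from 9514 to 11201 in normal and from 8564 to 11446 in diabetic arrays. Most of that sum was Cd74 and Lyz2. Cd74, the 1 under 0.05 unadjusted, had a log2 fold change of -0.36 ± 0.14 (limma adjusted p = 0.202), and Lyz2 one of 0.35 ± 0.23 (adjusted p = 0.445). Of the 6 tested leukocyte markers, 4 had estimates above 0, as Ucp2 did, and 2 below. The part of leukocytes in the Ucp2 difference was not tested. Of 7 tested fibroblast markers 4 fell, Col1a1, Col1a2, Col3a1 and Lum (log2 -1.24, -1.44, -1.97 and -1.64), and 3 fell without normal 3, Col1a1 having a limma adjusted p of 0.0781. Dcn, Fap and Pdgfra did not pass (log2 -0.010, -0.051 and -0.24). Of 5 adipocyte markers on the array 2 were tested, and 1 rose, Cidea (log2 0.83 ± 0.14, limma adjusted p = 0.0219). It was not called with normal 2, normal 3, diabetic 2 or diabetic 3 left out. Cidea already had signals of 4113.7 to 4867.1 in normal arrays, while Plin1, Lep and Ucp1 were too dim to test. Cfd, the other tested, did not change (log2 0.25 ± 0.14, limma adjusted p = 0.361). Among 5 endothelial markers 1 fell, Tie1 (log2 -0.94 ± 0.17), a call that needed normal 2, normal 3, diabetic 2 and diabetic 3 (limma adjusted p = 0.0873 without normal 3). Endothelial estimates were above 0 at 3 markers and below 0 at 2 (list median 0.074). Pecam1 went the other way from Tie1 (log2 0.68 ± 0.23, limma adjusted p = 0.153). Among 4 atrial markers 1 rose, Nppa (log2 2.76 ± 0.18, limma adjusted p = 0.00068), which stayed called with any 1 array left out. The other 3, Myl7, Myl4 and Sln, did not change by limma (log2 0.17 ± 0.69, 0.43 ± 0.47 and 1.64 ± 0.80), and all 4 estimates lay above 0. Myl7 had signals of 812.1, 162.4 and 99.9 in normal and 328.1, 468.0 and 131.3 in diabetic arrays. The part of atrial tissue in the Nppa difference was not tested. In whole tissue, fewer cells of a type and less RNA per cell cannot be told apart.

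The genes whose profile over the 6 arrays was most like that of a member were found among 8090 named probe sets, by the root mean square difference of centred log2 values. For Slc25a4 the closest was Myoz2, a Z-disc protein of heart and slow muscle, at 0.020, with signals of 25383.4, 24485.3 and 19695.9 in normal and 23574.2, 28990.6 and 23987.4 in diabetic arrays. It shared the low value in normal 3 and the high one in diabetic 2 that most very bright probe sets had. Drg2 (0.040) and Rnf123 (0.049) followed, with a median of 0.276 over all named probe sets. For Ucp2 the closest were Mgst2 (0.054), Mau2 (0.061) and Mmrn2 (0.061), against a median of 0.386. For Slc25a5 they were Septin2 (0.044), C8h15orf61 (0.052) and Hars2 (0.068), against a median of 0.299. For Ucp3 they were Hpd (0.186), Creb3l1 (0.257) and Itgb7 (0.321), less close than for the other 3, against a median of 0.7195. The dim gene Hpd had signals of 205.1, 160.4 and 57.2 in normal and 147.7, 97.5 and 136.0 in diabetic arrays. Over so few arrays such matches describe the profiles only.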

How the data were processed

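Total RNA of 3 normal and 3 diabetic rat left ventricles was hybridised to 1 single-colour Affymetrix array each. The authors deposited linear signal intensities, 1 for each probe set on each array. No source used here names their software or normalization. Trimmed means (2% of probe sets off each end) were 500.2 on every array, so the intensities were used as deposited. Of 15923 probe sets, 57 controls were left out. Symbols came from the array's annotation, updated by gene number through a RefSeq gene table. Probe sets with a mean signal above the 40th percentile (117.65) were tested, 9518 in all. The test was limma 3.58.1 (R 4.3.3; lmFit and eBayes, two-sided, no covariate) on log2(signal + 16), with Benjamini-Hochberg adjustment over all tested probe sets and changed meaning an adjusted p under 0.05. On this scale the fold change of a dim gene comes out too small. Intervals are limma's 95% intervals. The code was tested on simulated data.

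The 8 genes, the lists and the alternatives were chosen with earlier results of these data known. Named genes are the 8 genes, each list gene that changed or else the 2 with the smallest p, and the 3 closest profiles for Ucp2, Ucp3, Slc25a4 and Slc25a5. Others are said to be named after their values were seen. The number of arrays limits the precision. Any pair of arrays shared a value at 25 probe sets or fewer. Figures used matplotlib 3.10.9.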

Additional observations from a re-analysis of the deposited data

How the results depend on the processing

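None of the 9 probe sets passed an adjusted p of 0.05 under any of the 17 alternatives, so the count of changed members was 0 in each; the lowest adjusted p was 0.0811, for Ucp2 with an intensity trend. Of 153 values for these probe sets under alternatives, 143 kept their direction and 10 reversed, all from estimates near 0. On the log2 scale Ucp3 became -0.019 with a pseudocount of 64, -0.099 with array weights, -0.66 without normal 3, -0.066 without diabetic 1 and -0.080 without diabetic 3, and 0.41 without normal 1. Slc25a5 became -0.057 without normal 2 and 0.21 without normal 3. Slc25a3 was at -0.12 without normal 3 and became 0.059 with quantile normalization, 0.10 without normal 1, 0.012 without normal 2 and 0.058 without diabetic 3. The cause was not tested, beyond the low Ucp3 signal of normal 3. Over all probe sets, 245 changed, and 386 with a pseudocount of 64, 18 with no filter, 429 with a filter at the 60th percentile, 525 with an intensity trend, 274 with the filter on mean log2 values (added after seeing the data), and 96 to 175 with 1 array left out, the lowest without normal 3. With the replicate number as a block the count was 163 and Ucp2 had an adjusted p of 0.145. Same-numbered arrays deviated together at r = 0.082, 0.029 and 0.013 over tested probe sets, so the numbers were not taken as pairs. Of the named list genes that changed, Slc25a33, Hadha, Decr1, Eci1, Cidea, Tie1 and Col1a1 were not called under the block, and without the filter only Ckb, Nppa and Col3a1 were.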
